A study of Mus with 2 samples.

Results

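Ribosomal protein genes are the genes for the protein parts of the cytoplasmic ribosome. The members were every gene symbol made of the stem Rpl or Rps and a number, followed at most by the letters a, x, y or l and a further number, together with Rplp0, Rplp1, Rplp2 and Rpsa. This gave 85 members of 28693 features, 53 named for the large subunit and 32 for the small subunit. Their RNA was followed across marker-gated cell types of newborn (postnatal day 0) mouse kidney, in single-cell libraries made from 3' ends on the 10x Chromium platform. Both libraries analysed, replicates 1 and 2, came from kidneys of genotype Rbpj c/- ; Foxd1cre/+, in which a floxed allele of Rbpj, the DNA-binding protein of the Notch pathway, was deleted in the renal interstitium by a Cre recombinase driven from Foxd1, and the other allele was null as the genotype is written. The series also names 2 control libraries of genotype Rbpj c/+ ; Foxd1cre/+, which were not analysed here, so every comparison below is between cell types of mutant kidneys and none measures the deletion. The labels did not say whether the libraries came from separate animals. P-values measure the spread left between these 2 libraries after a shift shared by all types is taken out. That spread may be technical.

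A ribosome holds a small subunit, which reads the messenger RNA, and a large subunit, which joins amino acids. Each is built in the nucleolus from ribosomal RNA and a fixed set of proteins, most of them in a single copy per ribosome. Their messenger RNAs carry a terminal oligopyrimidine tract at the 5′ end, through which the TOR kinase adjusts their translation as a group, and Myc family proteins are known to drive transcription of many of them. A few members have a paralog that can take the same place in the ribosome, named with a final l or l1. In the kidney, nephron progenitors divide and self-renew at the rim and give rise through early nephron structures to podocytes, the filtration cells of the glomerulus, and to the epithelium of proximal tubule and loop of Henle.

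All 85 members matched a RefSeq gene by symbol (GRCm38.p6), on 19 chromosomes with 14 members on chromosome 7 and 4 on the X. The fit across all genes tested 83 of them. Rpl10l had no unique molecular identifier (UMI) in any gated type, and Rpl39l had at most 2 in any type of a library, so neither passed the filter on low counts. Rpl6l, listed as a pseudogene by RefSeq, was kept because the rule finds it. Many ribosomal protein genes have near-identical processed copies elsewhere in the genome, and how the counting shared reads between them is not known, so levels of single members carry that uncertainty. The 16 features with a pseudogene ending held 0.162% and 0.165% as many UMIs as the members.

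The libraries held 163405630 and 135436576 UMIs. Barcodes with at least 2000 UMIs and at most 10% mitochondrial UMIs numbered 6220 and 5149, with a median depth of 11987.5 and 12307 UMIs, and 6 barcodes occurred in both libraries. A barcode was given a type where at least 3 of 6 marker genes had a UMI and at least 2 more than for any other type, which typed 3982 and 3397 barcodes. Type names below stand for cells that look like the named type by this rule. Within each type described, the summed level of its own markers was above the level of those markers in every other type described. Stroma and mural cells were the closest pair (stromal markers at 3506 and 3606 CPM in stroma and up to 2155 CPM in mural cells). The same markers set the types, so this is no independent support for the names. Distal tubule was left out for its few cells. Its markers stood at 1092 and 1284 CPM in ureteric epithelium, where the type's own had 1267 and 980. In loop of Henle they stood at 1052 and 556 CPM, beside 4199 and 3301 for its own. CPM is the number of UMIs of a gene scaled to a fixed total of all UMIs of a type in a library, and levels of different genes are not compared, since they are not given per length. Over all kept barcodes the members took 22.4% and 22.8% of UMIs, against 17.1% and 17.4% in barcodes of at most 100 UMIs, which hold mostly free RNA. Barcodes without a type were at 22.2% and 22.1%.

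Nephron progenitors held the largest share of ribosomal protein RNA of any type described. The members took 28.96% of UMIs in replicate 1 and 29.73% in replicate 2, a mean of 29.3% ± 0.54 (SD, n = 2 libraries here and below). Early nephron cells followed at 24.98% and 24.52%. Stroma, the interstitial support cells in which Foxd1-Cre acts, stood at 20.9% and 21.4%, proximal tubule at 19.6% and 20.4%, loop of Henle at 18.9% and 20.9%, and endothelium at 18.4% and 19.0%. Immune cells stood at 17.2% and 17.8%. Podocytes had 12.9% and 13.2%, a mean of 13.1% ± 0.22, which was 2.25-fold below the progenitors. Erythroid cells had 1.43% and 1.79%. Ureteric epithelium (16 and 17 cells) stood at 22.3% and 21.9%, and mural cells (34 and 19 cells) at 17.2% and 16.6%. Progenitors and early nephron cells lay above every other type in both libraries, podocytes and erythroid cells lay below every other type, and the loop of Henle libraries overlapped those of stroma, proximal tubule and endothelium. The exact binomial 95% interval of the progenitor share in replicate 1 ran from 28.94% to 28.98%, and such intervals cover counting error only. The shares sum over all members and are given as a description, without a test. An exact permutation test of 2 libraries against 2 cannot go below p = 0.333.

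**Figure D1:**
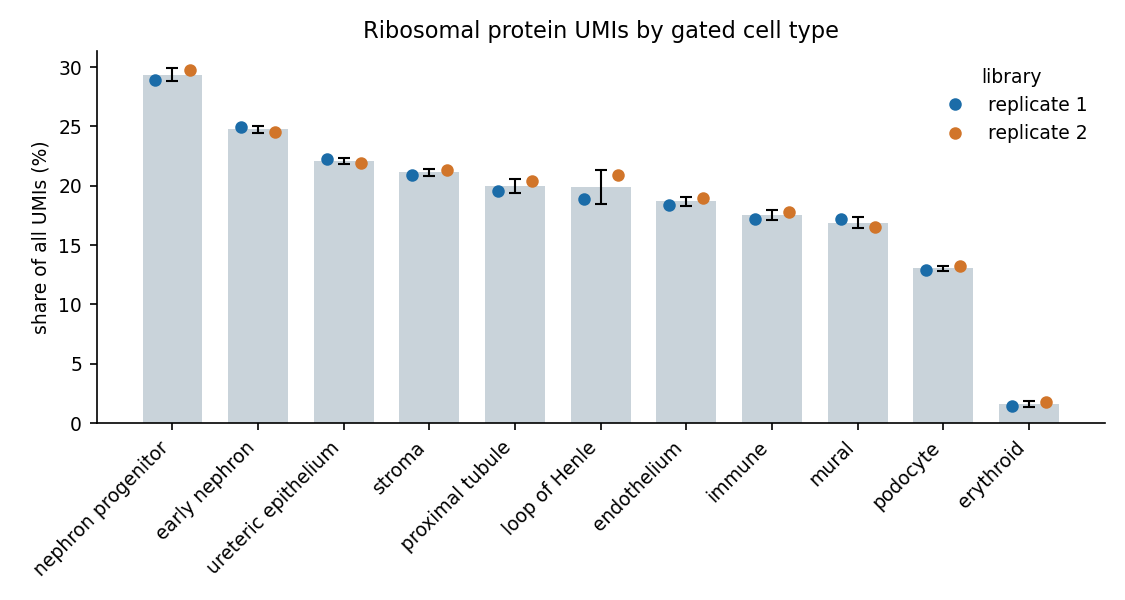
Share of all UMIs taken by the ribosomal protein genes (y axis, %) in each marker-gated cell type (x axis), as the mean of 2 libraries (bar), the SD (error bar) and each library (points). Nephron progenitors stand highest at 29.3% and podocytes at 13.1%, with erythroid cells lowest.

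The share varied from cell to cell within a type. In progenitors the 5th percentile, median and 95th percentile over cells were 23.8%, 29.6% and 35.3% in replicate 1, and 24.7%, 30.1% and 35.2% in replicate 2. Podocytes had 6.91%, 10.9% and 18.7% in replicate 1 and 7.18%, 10.7% and 20.9% in replicate 2. The podocyte at the 95th percentile was thus below the progenitor at the 5th in both libraries. A median progenitor carried 4648 and 4382 ribosomal protein UMIs, and a median podocyte carried 800.5 and 920.5. Immune cells ranged between the same percentiles from 3.32% to 26.2% in replicate 1 and from 3.58% to 26.9% in replicate 2.

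Podocytes also differed from progenitors in depth and in Malat1, a nuclear long noncoding RNA. Their median depth was 7428 and 8379 UMIs against 15083.5 and 14110, and Malat1 took 3.67% and 2.90% of their UMIs against 1.16% and 1.14%. Among cells of 5000 to 20000 UMIs the share was 11.8% and 11.7% in podocytes and 30.3% and 30.6% in progenitors. Among cells with at most 2% Malat1, a limit chosen after seeing the data, the 46 and 47 podocytes left had 17.5% and 16.8%, and progenitors had 29.1% and 29.9%. The podocyte share was therefore higher at low Malat1 and still below that of progenitors.

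Within podocytes, stroma and progenitors, cells with more of their own markers had a lower ribosomal protein share in both libraries. Among cells of 5000 to 20000 UMIs, podocytes with 5 of the 6 podocyte markers (38 and 20 cells) stood at 15.9% and 16.3%. Podocytes with all 6 markers (308 and 234 cells) stood at 11.1% and 10.8%. Stromal cells went from 22.1% and 23.3% with 3 markers to 16.6% and 18.3% with 6, of which there were only 35 and 20 cells. Progenitors went from 31.7% and 33.1% with 3 of their markers to 29.6% and 29.9% with 6. Early nephron cells showed no such order, at 26.7% and 26.7% with 3 markers and 26.8% and 26.4% with 5. Immune cells of replicate 1 went the other way from 4 markers (13.5%, 26 cells) to 5 (18.0%), and stood at 17.4% with 6, while replicate 2 went from 18.6% with 5 to 18.1% with 6. Loop of Henle, with more than 1 group of cells in replicate 1 only, went from 19.99% with 4 markers to 17.91% with 5. Endothelium of replicate 1 stood at 19.8% with 4 markers (21 cells), 18.9% with 5 and 19.0% with 6. Endothelium of replicate 2 went from 19.9% with 5 to 19.2% with 6. Proximal tubule went from 22.5% to 21.7% between 5 and 6 markers in replicate 1 and from 22.7% to 22.8% in replicate 2. Over all podocytes the 6 markers together took 9008 and 8829 CPM.

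**Figure D2:**
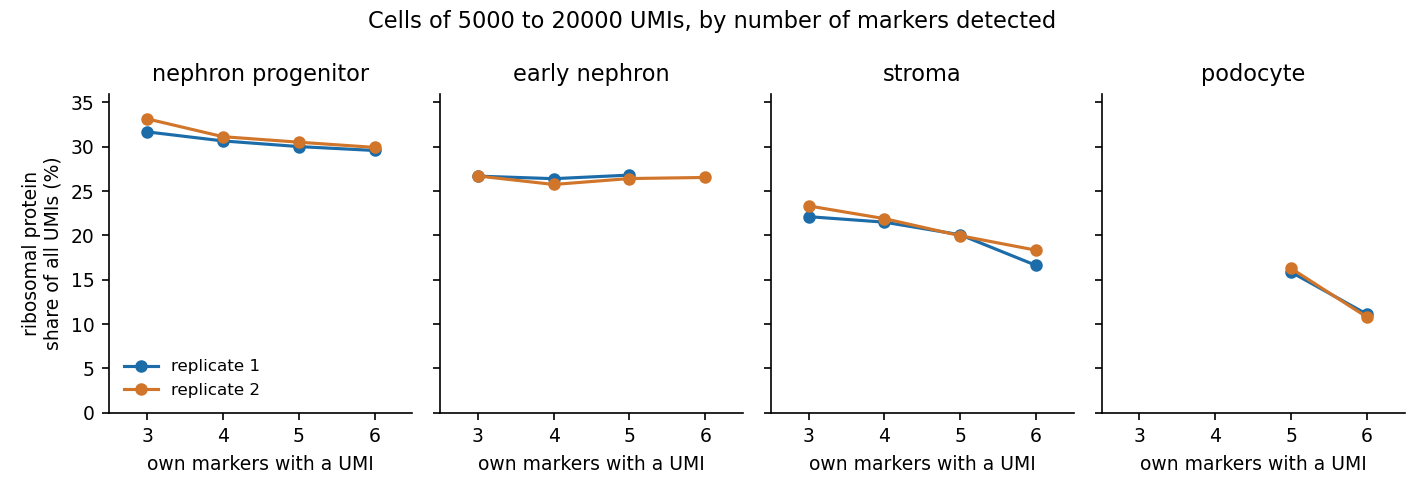
Ribosomal protein share of all UMIs (y axis, %) against the number of the type's own 6 markers with a UMI (x axis), in cells of 5000 to 20000 UMIs and for groups of at least 20 cells, with a line for each library. The share fell with markers detected in podocytes (15.9% to 11.1% in replicate 1), stroma and progenitors, and showed no order in early nephron cells, the other type drawn.

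Progenitors were then set against the mean of podocyte, proximal tubule and loop of Henle in a model fitted to all genes. Of the 83 members tested, 80 were higher in progenitors and none was lower (edgeR quasi-likelihood test, Benjamini-Hochberg adjusted p under 0.05). The background was high, since 32.8% of all 15013 genes tested were called higher in this comparison and 30.1% lower. The median log2 fold change of the members was 0.84, and that of all genes tested was 0.02. The member median was 0.67 among cells with at most 2% Malat1, and 1.30 with at most 5% mitochondrial UMIs, where podocytes alone stood for the differentiated types. Large-subunit members had a median of 0.82 and small-subunit members 0.89. The members not called were Rpl36al, Rps27l and Rpl3l.

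Rps26, a small-subunit protein at the messenger RNA exit channel, differed most. It stood at 2988 and 3218 CPM in progenitors and at 939 and 916 in podocytes, with 1632 and 1591 in proximal tubule and 1542 and 1617 in loop of Henle. The groups did not overlap, and the log2 fold change was 1.31 ± 0.06 (SE, edgeR adjusted p = 1.9e-15). Rpl12, a protein at the base of the large subunit's stalk, had 4217 and 4416 in progenitors and 1360 and 1332 in podocytes, with a log2 fold change of 1.17 ± 0.05 (edgeR adjusted p = 1.0e-14). Rpl36a changed by 1.07 ± 0.05. These 3 members were high in progenitors of both libraries and low in podocytes of both.

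The stalk of the large subunit, which recruits elongation factors, is built from the P proteins Rplp0, Rplp1 and Rplp2. Rplp0 had 4012 and 4323 CPM in progenitors and 1303 and 1458 in podocytes. Rplp1 had 4151 and 4246 in progenitors and 1477 and 1357 in podocytes, and Rplp2 had 2528 and 2746 against 1054 and 1114. In all 3 the log2 fold change of progenitors over differentiated nephron types was close to the median of the members or above it, at 1.05 ± 0.07, 0.94 ± 0.05 and 0.97 ± 0.05. Rpsa, a small-subunit protein also known as a laminin receptor, changed by 1.01 ± 0.05.

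Rpl5 and Rpl11 form with 5S ribosomal RNA the particle that restrains Mdm2 when ribosome assembly fails. Rpl5 had 2722 and 2821 CPM in progenitors and 1324 and 1284 in podocytes, with a log2 fold change of progenitors over differentiated types of 0.89 ± 0.05. Rpl11 had 4044 and 4080 against 1847 and 1959, with 0.80 ± 0.05. Rps24, which like Rps19 is a gene of Diamond-Blackfan anaemia, changed by 0.91 ± 0.05, and Rpl38, known for its part in the translation of Hox messenger RNAs, by 0.81 ± 0.05. All 4 moved with the bulk of the members.

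Each other type was compared with the same progenitor sums, so the comparisons share those sums and are given side by side. Early nephron cells had 75 of 83 members lower and 1 higher, where 20.1% of all genes were called lower and 22.5% higher. The median log2 fold change of the members was -0.32. Rps21, Rps4x, Rplp0 and Rps26 fell most, between -0.55 and -0.51. Rps21 stood at 3195 and 3573 CPM in progenitors and at 2379 and 2562 in early nephron cells, so the libraries did not overlap.

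In podocytes 82 members were lower and none was higher (30.6% of all genes were called lower and 28.4% higher), with a median log2 fold change of -1.34. Rpl3l, at 0 and 1 UMI, was the member not called. Rps26 had the largest change (-1.90 ± 0.07, edgeR adjusted p = 2.9e-16), followed by Rpl36a (-1.84 ± 0.07), Rpl12 (-1.84 ± 0.07) and Rplp0 (-1.75 ± 0.10). At the other end Rpl36al changed by -0.32 ± 0.07, Rps27l by -0.38 ± 0.08 and Rpl21 by -0.44 ± 0.07. Rpl21 had 3150 and 3058 CPM in progenitors and 2635 and 2474 in podocytes, a smaller drop than that of the median member.

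Proximal tubule had 76 members lower and 3 higher, with a median log2 fold change of -0.50 (32.5% of all genes were called lower and 31.6% higher). Rps26 (-0.90 ± 0.07), Rpl3 (-0.80 ± 0.06), Rps3a1 (-0.75 ± 0.06) and Rps9 (-0.75 ± 0.07) fell most. Loop of Henle had 80 lower and 1 higher, with a median of -0.70 (26.3% of all genes were called lower and 26.3% higher). Large changes there were in Rps26 (-1.12 ± 0.07), Rpl12 (-1.02 ± 0.07) and Rps25 (-0.998 ± 0.079). Malat1 took 1.58% and 1.27% of UMIs in proximal tubule and 2.36% and 1.69% in loop of Henle, and mitochondrial genes 7.09% and 7.71%, and 6.97% and 6.80%, against 5.63% and 6.12% in progenitors. Among cells with at most 2% Malat1 the member medians were -0.46 in proximal tubule and -0.59 in loop of Henle, where all genes had -0.09 and -0.12. The part of mitochondrial RNA was not tested in these types, since a limit of 5% left too few of their cells.

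Stroma had 79 members lower and 1 higher, with a median of -0.51 (26.5% of all genes were called lower and 26.0% higher). Foxd1-Cre acts in stroma, so where stroma is compared with other types, cell type and deletion cannot be told apart. Rplp0 (-0.86 ± 0.09), Rpl3 (-0.86 ± 0.06) and Rps3 (-0.82 ± 0.06) were among those that fell most, while Rps26, which led in podocytes, proximal tubule and loop of Henle, changed by only -0.46 ± 0.07. Endothelium, the lining of vessels, had 79 lower and none higher, with a median of -0.65 (31.2% of all genes were called lower and 30.4% higher). Among its leading changes were Rps26 (-1.05 ± 0.07), Rps4x (-1.003 ± 0.071) and Rpl14 (-0.97 ± 0.07). Immune cells had 77 lower and 5 higher, with a median of -0.63 where all genes had -0.18 (31.3% were called lower and 26.5% higher). Rpl3 (-1.18 ± 0.06), Rpl7 (-1.12 ± 0.06) and Rpl36a (-1.11 ± 0.07) were among those that fell most there.

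**Figure D3:**
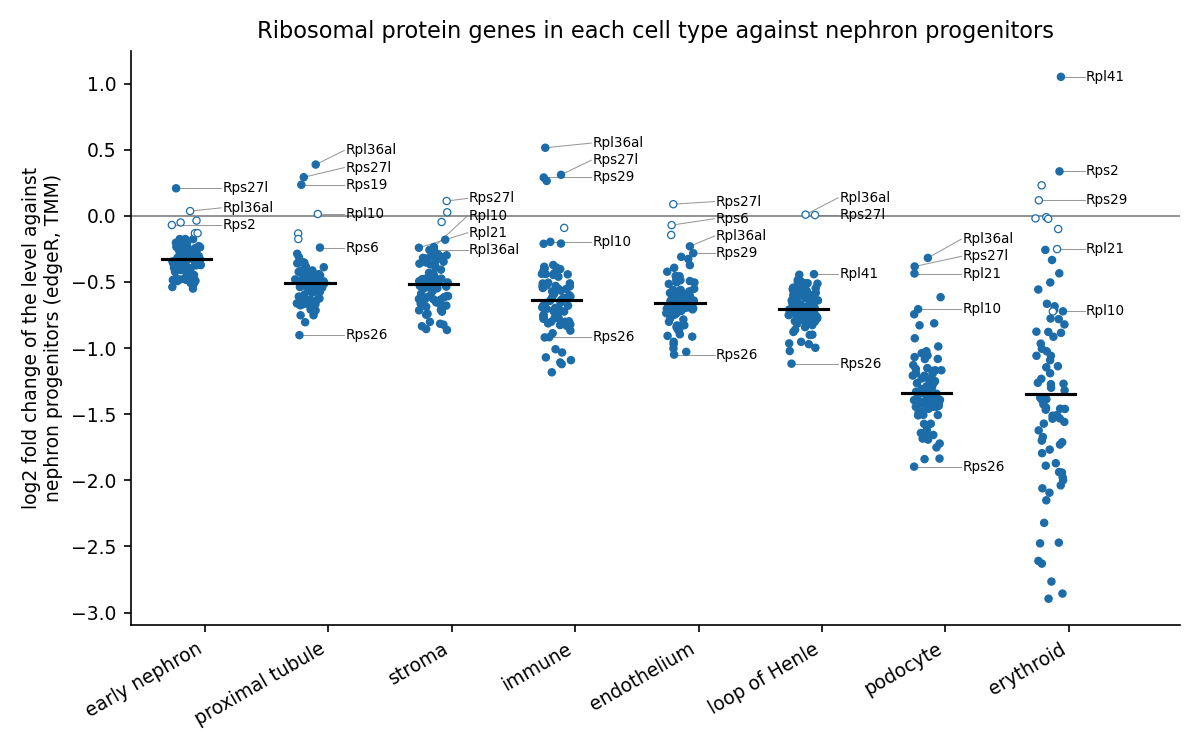
Log2 fold change of the level against nephron progenitors (y axis) for 82 ribosomal protein genes (points; Rpl3l with its few UMIs is left out) in 8 cell types (x axis). Filled points passed an adjusted p of 0.05, open points did not, black lines are medians, and named points are members that stand apart from the median. Most points lie under 0, while Rpl36al and Rps27l lie at the top of most types.

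Across the 8 types other than erythroid cells, 75 of the 83 tested members had their highest mean level in progenitors, against 9.8% of all genes tested. For 65 of them both progenitor libraries lay above every other type's (6% of all genes). The lowest mean level was in podocytes for 73 members (11.5% of all genes), 69 of them with both podocyte libraries below every other (4.77% of all genes). The ratio of the highest to the lowest type ran from 1.45 to 3.35 with a median of 2.30 over 82 members, Rpl3l left out. Rps27l, Rpl10, Rpl7l1 and Rpl36al were the flattest, and Rps26, Rpl36a, Rpl12 and Rplp0 the steepest. The members with their highest level elsewhere were Rps19 in proximal tubule, Rps29, Rpl36al, Rpl7l1 and Rpl3l in immune cells, Rps27l and Rps2 in early nephron cells, and Rpl22l1 in stroma. The libraries of Rpl36al, Rps27l, Rps2 and Rpl22l1 in those types overlapped with those of another type.

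To ask which members moved apart from the group, the model was refitted with the summed ribosomal protein UMIs of each sum as its library size. A change in this fit is a change in a gene's share of ribosomal protein RNA. In progenitors against differentiated nephron types 15 members took a higher share and 15 a lower one of 83, where 10.5% of all genes were called higher and 63.1% lower. With this library size every gene is read against the members, so the whole table shifts, and these shares are no measure of the members. The adjustment runs over the same shifted table. In this comparison 30 members were called with it and 31 at an unadjusted p under 0.05 (edgeR). Early nephron had 10 higher and 3 lower (44.1% and 8.94% of all genes), a split that became 11 and 12 with a stricter marker gate, 12 and 11 without erythroid sums and 5 and 0 with no replicate block. Podocytes had 19 and 18 (68.6% and 7.01%), and proximal tubule 11 and 11 (48.3% and 17.1%). The proximal tubule split was 7 and 3 among cells of 5000 to 20000 UMIs, 9 and 5 without the filter on low counts, 7 and 5 with no replicate block and 13 and 17 without erythroid sums. Loop of Henle had 14 and 9 (53.2% and 8.06%), stroma 24 and 12 (51.3% and 9.57%), endothelium 17 and 14 (56.8% and 12.9%), and immune cells 22 and 20 (42.4% and 16.2%). The loop of Henle split was 9 and 5 among cells of 5000 to 20000 UMIs and 8 and 7 without the filter on low counts. It was 8 and 6 with no replicate block and 18 and 12 without erythroid sums. The immune split was 14 and 12 with no replicate block and 22 and 26 without erythroid sums. The range between the 10th and 90th percentile of members ran from -0.14 to 0.17 in early nephron cells and from -0.32 to 0.48 in podocytes, on the log2 scale.

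Paralogs and their parent genes had different orders of types. Rpl36a, on the X chromosome (GRCm38.p6, X:134585654-134588062), and Rpl36al, on chromosome 12 (12:69182734-69184067), encode nearly the same large-subunit protein. Rpl36a had 2183 and 2453 CPM in progenitors, 703 and 738 in podocytes and 931 and 1040 in immune cells. Rpl36al had 533 and 491 in progenitors, 463 and 450 in podocytes, 673 and 627 in proximal tubule and 669 and 672 in immune cells. The log2 fold change in immune cells was -1.11 ± 0.07 for Rpl36a and 0.51 ± 0.07 for Rpl36al (edgeR adjusted p = 3.1e-12 and 2.0e-06). In proximal tubule Rpl36al rose by 0.39 ± 0.07 (edgeR adjusted p = 4.4e-05) where Rpl36a changed by -0.54 ± 0.07. Immune and proximal tubule libraries of Rpl36al lay above both progenitor libraries.

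Rps27 and Rps27l encode a zinc-finger protein of the small subunit, and Rps27l is known as a target of p53. Rps27 had 2277 and 2580 CPM in progenitors and 1566 and 1657 in podocytes. Rps27l had 352 and 347 in progenitors, 414 and 450 in early nephron cells, 279 and 319 in podocytes, 414 and 417 in proximal tubule and 398 and 395 in immune cells. Rps27l rose in early nephron cells (0.21 ± 0.08, edgeR adjusted p = 0.031), proximal tubule (0.29 ± 0.08, 0.0019) and immune cells (0.31 ± 0.08, 0.0022), where the call was lost with library size alone (0.18). The early nephron call was lost in 7 of 13 alternatives, among them the fit with DESeq2's size factors (0.18). As a share of ribosomal protein UMIs, Rps27l was higher than in progenitors in each of the other 7 types outside the erythroid line, by 0.55 to 0.94.

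**Figure D4:**
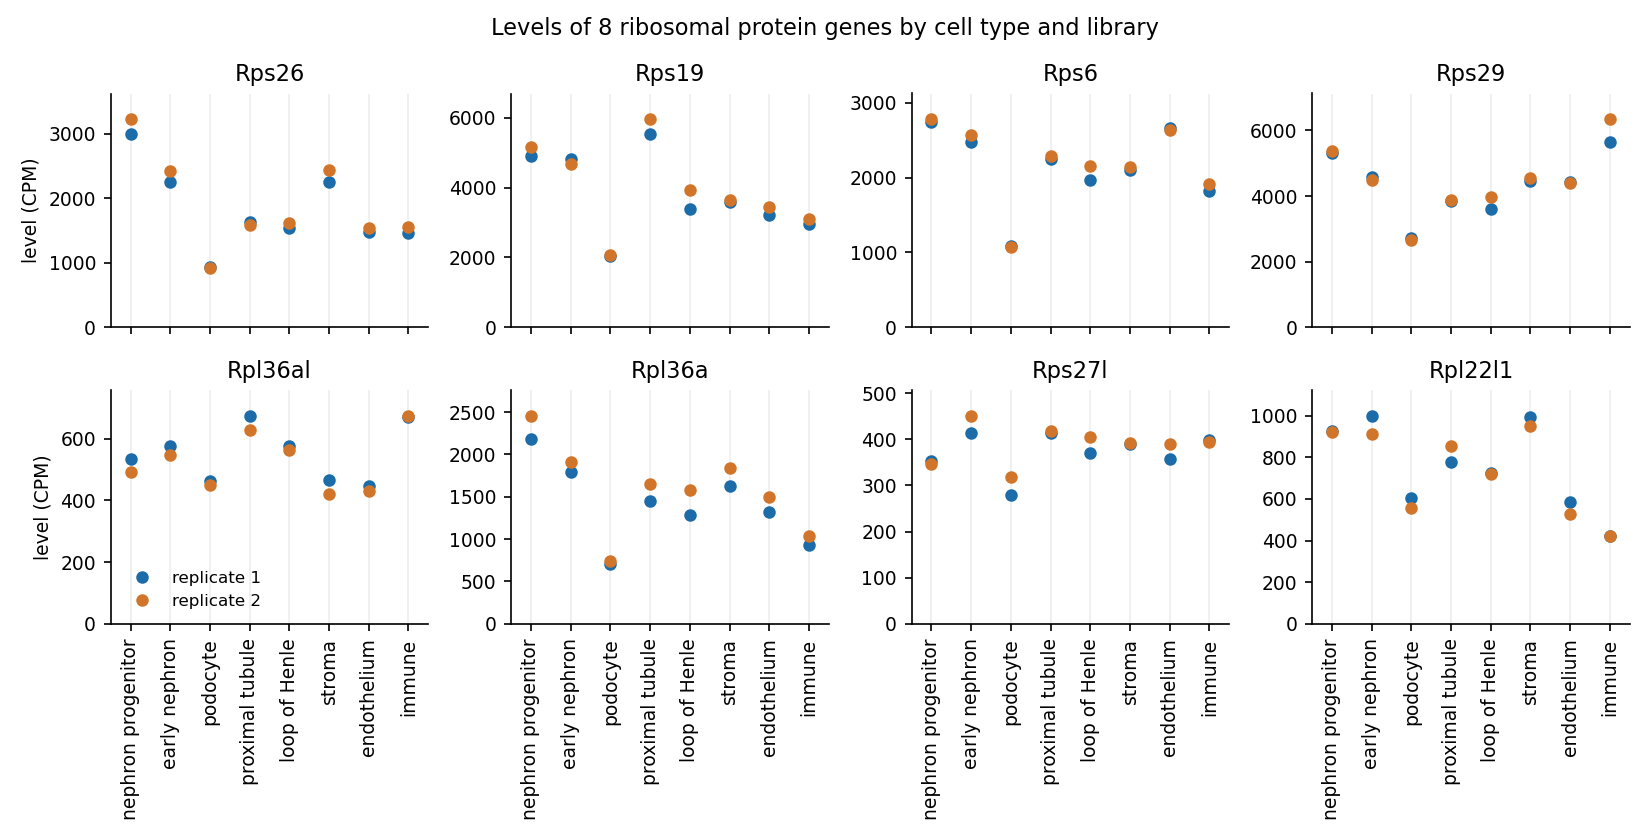
Levels (y axis, CPM, each panel from 0) of 8 ribosomal protein genes by cell type (x axis), with a point for each library. Rps26 and Rpl36a drop from progenitors to podocytes, Rps19 is highest in proximal tubule, Rps29 and Rpl36al reach their highest mean in immune cells, and Rps6 in endothelium lies close to progenitors.

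Rpl22, an RNA-binding protein of the large subunit, had 1778 and 1806 CPM in progenitors and 1248 and 1280 in stroma. Its paralog Rpl22l1 had 926 and 921 in progenitors and 996 and 952 in stroma, but 422 and 420 in immune cells. Rpl22l1 changed by 0.03 ± 0.07 in stroma and by -1.01 ± 0.08 in immune cells, the latter beyond the change of Rpl22 there (-0.59 ± 0.08). Stroma and immune cells thus lay at opposite ends of the Rpl22l1 range. The difference between paralog and parent was not tested as such for any pair.

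Rpl7l1, whose product is known mainly for ribosome assembly, had 119 and 107 CPM in progenitors and 121 and 128 in immune cells. Rpl7, its parent, went from 4131 and 4061 to 1709 and 1745 (-1.12 ± 0.06). In immune cells Rpl7l1 was called at 0.26 ± 0.11 (edgeR adjusted p = 0.046), and the call was lost in 6 of 13 alternatives. The change was 0.26 with no replicate block, 0.25 with at most 5% mitochondrial UMIs, 0.24 at a minimum of 5000 UMIs, 0.22 among cells of 5000 to 20000 UMIs and without the filter on low counts, and 0.14 with library size alone. Rpl10, an X-linked large-subunit protein that joins late in assembly, was among the flattest members, with 2060 and 2123 in progenitors, 2065 and 2037 in proximal tubule and 1481 and 1376 in podocytes. Rps4x, also X-linked, followed the group (1.05 ± 0.05 in progenitors over differentiated types), as did X-linked Rpl39 (0.95 ± 0.05). The 4 X-linked members thus ranged from 0.40 (Rpl10) to 1.07 (Rpl36a) in that comparison.

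Rpl3l, the paralog of Rpl3 known from heart and skeletal muscle, was near the limit of detection. It had no UMI among the 41622451 of the progenitors and 1 in each of early nephron, podocyte, proximal tubule and endothelium over both libraries. Immune cells had 7 and 4 UMIs, or 3.16 CPM over both libraries. This is 43.8-fold over a floor of 3 counts over the progenitors of both libraries. Loop of Henle had 3 and 1 UMIs (9.34-fold over the floor) and stroma 2 and 2 (3.71-fold). These folds take the few counted UMIs as exact, so they are no lower bounds. Rpl3l passed the filter on low counts (1.54 CPM in 2 sums) only through the 2 immune sums, so its calls are no support for a difference. It is the 1 member counted as higher in loop of Henle and in stroma above, and 1 of the 5 in immune cells. In the counts by share of ribosomal protein UMIs it is 1 of the 15 lower in progenitors than in differentiated types, and 1 of those higher in loop of Henle, stroma and immune cells. The stroma call was lost among cells with at most 2% Malat1 and without the filter, and Rpl3l was not tested at a minimum of 5000 UMIs. With Rpl3l at these folds or left out, the medians over members moved by no more than 0.03.

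Rps19, on chromosome 7 (7:24884592-24889811), was the member that rose in proximal tubule outside the paralogs. It had 4894 and 5153 CPM in progenitors, 4829 and 4683 in early nephron cells, 5538 and 5948 in proximal tubule, 3395 and 3943 in loop of Henle and 2045 and 2082 in podocytes. Both proximal tubule libraries were above every other library. The level rose by 0.23 ± 0.06 (edgeR adjusted p = 0.0019) where the median member fell by 0.50, and its share of ribosomal protein UMIs went from 1.69% and 1.73% to 2.83% and 2.91% (log2 0.75 ± 0.06, edgeR adjusted p = 2.3e-10). The level call was lost without the filter on low counts (0.18), and the share call held in all 8 alternatives run.

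Rps6, the small-subunit protein phosphorylated by S6 kinase, stood close to its progenitor level in endothelium. It had 2750 and 2777 CPM in progenitors and 2661 and 2643 in endothelium, against 1093 and 1070 in podocytes and 2103 and 2140 in stroma. Its log2 fold change in endothelium was -0.07 ± 0.08 (edgeR adjusted p = 0.42), where the median member had -0.65. The share of ribosomal protein UMIs went from 0.95% and 0.93% in progenitors to 1.45% and 1.39% in endothelium (log2 0.59 ± 0.07, edgeR adjusted p = 9.2e-08). Of the other 7 types outside the erythroid line, proximal tubule came next at 1.15% and 1.12%.

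Rps29, a zinc-binding small-subunit protein, stood out in immune cells. It had 5313 and 5365 CPM in progenitors, 5659 and 6332 in immune cells and 2706 and 2648 in podocytes. The level rose by 0.29 ± 0.06 (edgeR adjusted p = 0.00021), and its share of ribosomal protein UMIs went from 1.83% and 1.80% to 3.28% and 3.55% (log2 0.91 ± 0.07). The level call was lost among cells of 5000 to 20000 UMIs (0.18). Rps29 lies at 12:69157722-69159186 (GRCm38.p6), in the same part of chromosome 12 as Rpl36al, which also rose in immune cells. Whether their position bears on this was not tested.

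Erythroid cells gave most of their RNA to haemoglobin, which took 83.6% and 82.7% of UMIs in 67 and 60 cells. Among UMIs outside mitochondrial and haemoglobin genes the members took 8.98% and 10.7%. In barcodes of at most 100 UMIs, which hold mostly free RNA, the members took 17.1% and 17.4% of all UMIs. The part of free RNA in the erythroid counts was not tested. In the model 72 members were lower than in progenitors and 2 higher (9.88% and 4.5% of all genes), with a median log2 fold change of -1.32 where all genes had -2.53. That scale depends on how the haemoglobin-rich sums are normalized, since the member median was -4.51 and the all-gene median -4.92 with library size alone. Rpl41, the shortest ribosomal protein, was called higher at 1.05 ± 0.07 and Rps2 at 0.34 ± 0.10, but with library size alone both were lower (-2.13 and -2.84). As a share of ribosomal protein UMIs, which does not use that scale, Rpl41 went from 1.52% and 1.54% in progenitors to 6.08% and 6.74% in erythroid cells, from 488 and 505 UMIs (log2 2.07 ± 0.07, edgeR adjusted p = 5.0e-18).

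The makeup of ribosomal protein RNA changed in 54 members in erythroid cells. Of the 54, 17 took a higher and 37 a lower share (6.14% and 1.37% of all genes). Rps2 (1.36 ± 0.09), Rplp2 (1.25 ± 0.09) and Rps29 (1.14 ± 0.08) followed Rpl41, and Rplp0 also took a higher share (0.99 ± 0.10), as did Rplp1. Rps18 (-1.87 ± 0.14), Rpl18 (-1.83 ± 0.12), Rpl14 (-1.74 ± 0.14) and Rpl3 (-1.60 ± 0.11) took a lower one. Large-subunit members had 1.43 and 1.51 UMIs for each small-subunit UMI in erythroid cells, against 1.17 and 1.18 in progenitors, 1.25 and 1.26 in podocytes and 1.15 and 1.14 in immune cells.

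Genes that make or use ribosomes were counted by lists. Of 28 genes of ribosome biogenesis, 24 were higher and 1 lower in progenitors than in differentiated nephron types (edgeR, adjusted p under 0.05), with a median log2 fold change of 0.77, where 32.8% of all genes were called higher and 30.1% lower. Nop56, a core protein of box C/D particles that methylate ribosomal RNA, stood at 221 and 193 CPM in progenitors and at 60.5 and 53.2 in podocytes (1.47 ± 0.11). Dkc1, the pseudouridine synthase dyskerin, and Gnl3, the nucleolar GTPase nucleostemin, changed by 1.45 ± 0.07 and 1.41 ± 0.12. Polr1d, a subunit that RNA polymerases I and III share, was the gene that was lower (-0.27 ± 0.06). In early nephron cells 2 of the 28 were higher and 3 lower than in progenitors (22.5% and 20.1% of all genes), with a median of -0.09, while the ribosomal protein genes had 75 of 83 lower there. The difference between these lists was not tested. Podocytes had 24 lower and none higher (30.6% and 28.4% of all genes), with a median of -1.06.

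Translation factors and other genes with terminal oligopyrimidine transcripts were mostly higher in progenitors. Of 23 genes, 21 were higher and 1 lower in progenitors than in differentiated nephron types (32.8% and 30.1% of all genes), with a median of 0.58. Eef1b2, an exchange factor of elongation factor 1, had 2562 and 2550 CPM in progenitors and 750 and 747 in podocytes (1.12 ± 0.05). Hnrnpa1, a splicing regulator, changed by 1.42 ± 0.06. Vim, the intermediate filament vimentin, had the largest change (2.10 ± 0.28) but was higher in podocytes (947 and 994) than in progenitors (197 and 234), and it stood at 25.4 and 13.8 in proximal tubule and at 11.7 and 5.12 in loop of Henle. Eif4a2, an initiation helicase, was lower (-0.19 ± 0.08). In early nephron cells 14 of the 23 were lower and none was higher (20.1% and 22.5% of all genes).

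Of 7 Myc family genes, 4 were higher and 1 lower in progenitors than in differentiated types (32.8% and 30.1% of all genes), and with so few genes the counts are not read against those shares. Mycn had 87.8 and 75.4 CPM in progenitors and 9.08 and 8.77 in podocytes (3.76 ± 0.11 over the differentiated types), and Myc had 67.4 and 64.0 against 3.08 and 2.81 (2.54 ± 0.10). Mycl, low in progenitors at 1.19 and 1.27 and at 14.4 and 13.5 in early nephron cells, was the gene that was lower (-1.96 ± 0.30). In early nephron cells Mycn stood at 80.3 and 73.8 and was not called (-0.18 ± 0.10), while Myc was lower (-0.90 ± 0.10). Of 11 genes of the TOR pathway, 2 were higher and 5 lower in progenitors than in differentiated types (32.8% and 30.1% of all genes), likewise too few to read. Tsc2, an inhibitor of TOR complex 1, had 18.1 and 17.0 in progenitors and 39.2 and 37.5 in podocytes (-0.62 ± 0.09 over the differentiated types). Larp1, which binds terminal oligopyrimidine tracts, was higher in progenitors (0.40 ± 0.08) and Mtor itself lower (-0.50 ± 0.09).

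Mki67, a marker of cycling cells, did not follow the same order of types as the ribosomal protein share. It had 227 and 176 CPM in progenitors, 320 and 316 in early nephron cells, 318 and 355 in stroma and 267 and 365 in immune cells. Podocytes had 40.0 and 34.7 and proximal tubule 54.6 and 61.8. Progenitors were thus below early nephron cells and stroma in Mki67. The part of cell division in the shares was not tested.

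The members differed little between the 2 libraries within a type, with Rpl29 apart. Rpl29, a small basic large-subunit protein, was higher in replicate 2 in 8 of 8 types outside the erythroid line, at 1038 and 1816 CPM in progenitors, 985.7 and 1659 in early nephron cells, 498 and 896 in podocytes, 700 and 1245 in stroma and 543 and 1070 in immune cells. The log2 ratio of replicate 2 over replicate 1 had a median of 0.84 over the types and ran from 0.75 to 0.98. In barcodes of at most 100 UMIs, which hold mostly free RNA, Rpl29 stood at 633 and 950 CPM, a log2 ratio of 0.58. Rpl15 was also higher in replicate 2 in 8 of 8 types (median log2 0.26) and Rpl35a lower in all 8 (-0.25). These 3 of 82 members had a median over 0.2 in size. With signs kept, the median over members was 0.03. Both libraries carry the same labels for genotype, age and tissue, and no cause was tested. With library as a block, a difference shared by all types does not enter the comparisons between types. Rpl29 was called lower than in progenitors in each of the 8 other types and higher in progenitors than in differentiated types (0.74 ± 0.05), and all 9 calls were lost with no replicate block (adjusted p from 0.106 to 0.821, edgeR). Without the block the fold changes stayed close, at 0.73 ± 0.44 in progenitors over differentiated types, and their standard errors grew.

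**Figure D5:**
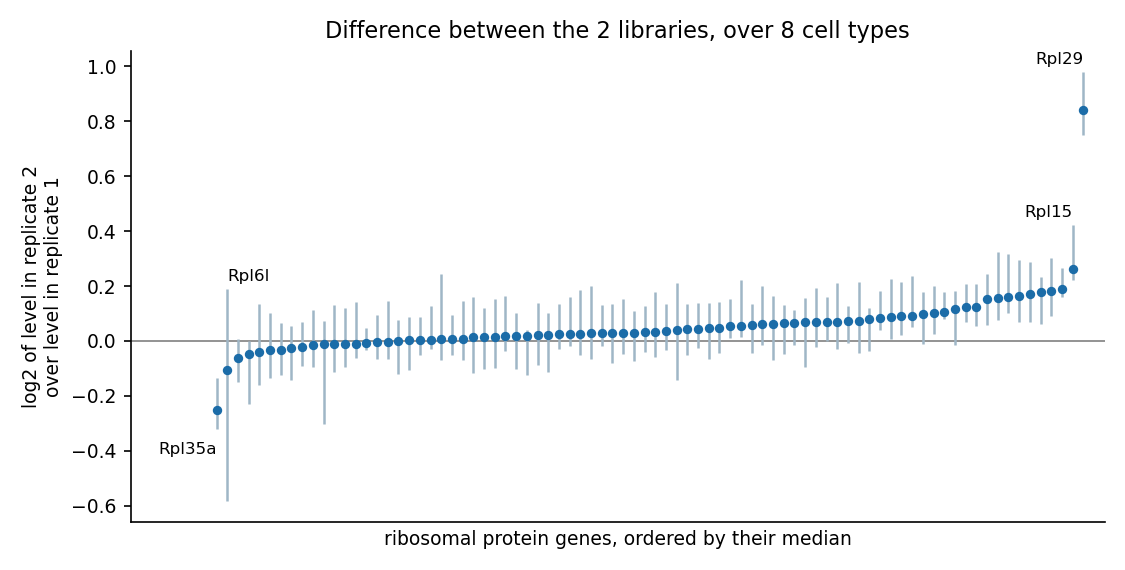
Log2 ratio of the level in replicate 2 over replicate 1 (y axis) for 82 ribosomal protein genes ordered by their median over 8 cell types (points), with the range over types (lines). Rpl29 lies apart at a median of 0.84, and most members lie near 0.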

How the data were processed

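The submitters deposited unfiltered matrices of UMI counts per gene and barcode, written by Cell Ranger 4 per the file headers, while the submitters' processing notes list Cell Ranger 6.0.1 and build mm10. The annotation version is not given in the sources used here. Barcodes with at least 2000 UMIs and at most 10% mitochondrial UMIs were kept (690 and 768 removed by the latter), and typed by 12 marker lists. Doublets were left in, and removal with Scrublet was an alternative. Replicates were numbered in the order of their records.

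UMIs were summed per library and type. Sums of the 9 types that reached 20 cells in both libraries were tested by the quasi-likelihood method of edgeR 4.0.16 in R 4.3.3 with limma 3.58.1 loaded. Normalization was by TMM, low genes were dropped by filterByExpr, and the design blocked on library (18 sums, 8 residual degrees of freedom, 15013 genes). The Benjamini-Hochberg adjustment covered every tested gene, with a threshold of 0.05. Types of a library come from the same sample, which is the source of the pairing. A level in CPM is relative to all UMIs of the sum. The composition fit used the summed ribosomal protein UMIs as library size, without TMM. The level fit was tested on simulated data for podocytes against progenitors. Of 200 changed genes 144 were recovered (72%), with 8 false calls among 13921 unchanged genes. The simulated sums had the same gene means in all types but podocytes and no difference between libraries, unlike the real ones. Tables were made in Python 3.11.15 (numpy 2.4.6, pandas 2.3.3, scipy 1.17.1), Scrublet was run in scanpy 1.11.5, and figures used matplotlib 3.10.9. Distal tubule (8 and 5 cells) was left out.

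Members and lists were chosen with earlier results of these data known. Named genes were up to 4 members in each direction with the largest change among those called and moved alike in both libraries, for each comparison, together with the stalk, Rpsa, paralogs with their parents, Rps19, Rpl5, Rpl11, Rps24, Rps6 and Rpl38, and up to 3 genes for each pathway list and direction. Rpl21, Rpl10 and Rps21 and genes named for rank or range were also chosen from their values. Some members that this rule finds are not reported here. No sequences are shown.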

Additional observations from a re-analysis of the deposited data

How the results depend on the processing

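Alternatives changed the minimum depth, mitochondrial limit, marker gate, depth range, doublets, normalization, test, filter and block, and 3 were chosen after seeing the data (normalization without the members, no erythroid sums, at most 2% Malat1). The share in progenitors minus that in differentiated nephron types was 11.7 percentage points, 16.8 with at most 5% mitochondrial UMIs (proximal tubule and loop of Henle then had too few cells), 12.1 with the stricter gate, 9.47 with at most 2% Malat1 and 12.3 without mitochondrial and haemoglobin UMIs. Leaving out a library gave 11.5 to 11.8. Leaving out a library leaves no residual degrees of freedom, so counts of calls were not repeated that way. Counts of members called in levels stayed within 1.5 times of the main ones under the alternatives run. Counts called in composition moved in early nephron (13) to 23 with the stricter gate and without erythroid sums and to 5 with no replicate block. They moved in proximal tubule (22) to 10 among cells of 5000 to 20000 UMIs, 14 without the filter and 12 with no replicate block, in loop of Henle (23) to 14, 15 and 14 under the same settings, and in immune cells (42) to 26 with no replicate block. The cause was not tested. Of 3724 alternative values of 342 called results for named members, 3564 kept direction and call, 153 lost the call and 7 reversed. Those 7 were Rpl39 in erythroid levels (0.0087 with DESeq2 size factors and 0.0065 by DESeq2's test), Rpl41 and Rps2 in erythroid levels with library size alone (-2.13 and -2.84), and, in composition with at most 5% mitochondrial UMIs, Rpl5 in immune cells (0.010) and Rplp2 (-0.017) and Rps19 (0.12) in progenitors against differentiated types, a mean that is then podocytes alone. The erythroid member median ranged from -4.51 to -0.98 and the podocyte median from -1.56 to -1.01, and library size alone moved the median of all genes in podocytes from -0.03 to 0.10. The stricter gate left no erythroid type. Sums in this depth limit Rpl3l, Rpl10l and Rpl39l.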
